A study of Mus musculus with 14 samples.

Results

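The H3K27ac regions present only in wild type are stretches of the mouse genome that carried a called block (island) of acetylated lysine 27 of histone H3 in both wild type (WT) libraries and in neither library of mice lacking UTX (KO). Overlapping islands of the 4 H3K27ac libraries were merged, and 3226 of the 34766 merged regions (9.28%) met this rule. Without WT replicate 1 the count would be 6137, and without KO replicate 1 it would be 4877. Another 18820 regions held an island in all 4 libraries, and 1800 (5.18%) held one in both KO libraries and in neither WT library. The rule used the H3K27ac islands of all 4 libraries, so the H3K27ac values below describe the members and are not tested. The cells were progenitors taken from bone marrow of C57BL/6 mice by depletion of cells that carry lineage markers, which takes out mature red cell, myeloid, B and T cells. The WT group has the genotype Utx +/+ and the KO group Utx-/-, and age, sex and how the deletion was made are not given in the sources used here. H3K27ac and the repressive mark H3K27me3 each had 2 WT and 2 KO libraries, UTX binding was profiled in 2 WT libraries, and 1 of the IgG libraries is used here as the background. The labels do not say whether the numbered libraries came from separate animals, so the spread given here is that between libraries and may be technical.

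H3K27ac is laid down by the acetyltransferases p300 and CBP at active promoters and enhancers, and the same lysine is trimethylated by the Polycomb complex PRC2 where genes are kept silent, so a single lysine cannot carry both marks. UTX, encoded by Kdm6a on the X chromosome, removes methyl groups from H3K27 and also works in the COMPASS complexes with MLL3 and MLL4 that prime enhancers. In bone marrow progenitors, GATA1 and GATA2 with TAL1 act at enhancers of red cell and platelet genes, while PU.1 and other ETS factors act at those of myeloid and lymphoid genes.

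5 promoters whose annotated start lay inside a WT-only region are printed here as examples from the red cell and platelet genes described below. They were chosen after the values were seen and do not represent the members, of which 16.5% lie at a gene end: Kel, a red cell surface protease that carries the Kell blood group; Hbb-bs, an adult beta globin; Tmod1, which caps actin filaments of the red cell membrane skeleton; Gp6, the platelet collagen receptor; and Mmrn1, a platelet granule protein. Each sequence holds the 250 bases before the start, 5′ to 3′ on the strand of the gene, from a RefSeq promoter table of build GRCm38.p6. Capitals mark matches to a GATA motif, AGATAA or AGATAG or TGATAA or TGATAG on either strand.
Kel, chr6:41704326-41704575, minus strand: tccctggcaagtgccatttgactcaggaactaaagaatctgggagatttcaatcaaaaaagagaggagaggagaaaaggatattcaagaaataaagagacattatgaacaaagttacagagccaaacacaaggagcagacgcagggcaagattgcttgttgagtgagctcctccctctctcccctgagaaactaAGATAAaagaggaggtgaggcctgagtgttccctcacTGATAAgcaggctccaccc
Hbb-bs, chr7:103827929-103828178, minus strand: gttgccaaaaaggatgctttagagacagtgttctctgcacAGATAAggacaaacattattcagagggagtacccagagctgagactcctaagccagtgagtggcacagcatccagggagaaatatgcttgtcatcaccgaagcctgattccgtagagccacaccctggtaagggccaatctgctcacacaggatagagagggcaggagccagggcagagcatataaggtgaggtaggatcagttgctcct
Gp6, chr7:4397745-4397994, minus strand: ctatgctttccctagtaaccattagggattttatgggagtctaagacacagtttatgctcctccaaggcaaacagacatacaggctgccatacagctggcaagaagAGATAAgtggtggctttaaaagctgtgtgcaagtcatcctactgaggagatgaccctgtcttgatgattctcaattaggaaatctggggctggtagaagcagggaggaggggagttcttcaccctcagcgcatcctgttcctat
Mmrn1, chr6:60944067-60944316, plus strand: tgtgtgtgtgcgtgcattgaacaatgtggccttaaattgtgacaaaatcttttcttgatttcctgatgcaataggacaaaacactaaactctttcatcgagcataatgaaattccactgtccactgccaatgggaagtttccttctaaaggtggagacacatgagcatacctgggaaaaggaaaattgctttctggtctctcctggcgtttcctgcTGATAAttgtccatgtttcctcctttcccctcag
Tmod1, chr4:46038972-46039221, plus strand: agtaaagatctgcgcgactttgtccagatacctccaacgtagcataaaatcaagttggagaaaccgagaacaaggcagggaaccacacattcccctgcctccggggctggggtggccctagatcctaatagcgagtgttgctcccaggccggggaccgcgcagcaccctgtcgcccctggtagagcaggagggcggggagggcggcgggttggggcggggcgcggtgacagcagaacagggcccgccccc
The Kel promoter held 2 GATA matches, which begin 56 and 19 bases before the start, and those of Hbb-bs, Gp6 and Mmrn1 held 1 each, beginning 210, 144 and 34 bases before it. The Tmod1 window held no match and was the richest of the 5 in the dinucleotide CG, with 25 in its 300-base window against 1 to 3 in the others.

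The H3K27ac libraries held 9330823 and 15256696 reads in islands in WT replicates 1 and 2, and 14763744 and 11121847 in KO replicates 1 and 2. KO replicate 1 stood apart at T and NK cell genes: 18 of 25 such genes had an H3K27ac island at an end there, against 10 in KO replicate 2 and 8 and 7 in WT. Of 25 B cell genes, 25 were marked in each KO library and 20 in each WT library. Of 10 globin genes, 1 was marked in each KO library and 4 and 7 in WT. Red cell surface genes were marked in 21 and 22 of 28 cases in KO and 26 in each WT library. Membrane skeleton genes gave 9 and 10 of 16 in KO and 13 in each WT library. The other red cell lists were close: 24 of 27 GATA and erythroid factors in each KO library, 26 and 24 in WT. Haem and iron genes gave 25 and 26 of 28 in KO and 26 and 27 in WT. Of 39 megakaryocyte genes 29 and 28 were marked in KO and 36 in each WT library. Of 34 granulocyte and monocyte genes, 31 and 29 were marked in KO and 25 and 24 in WT. The part of such shifts in the regions described here was not tested. Fewer red cell or platelet precursors among the progenitors and less H3K27ac per cell cannot be told apart in such bulk material, and this holds for every H3K27ac value below.

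WT-only regions were mostly narrow and weakly marked, and the WT libraries gave them similar strength. Strength is given as reads per 1000000 reads in islands of the same library (rpm). The median width was 4200 bp (quartiles 3000 and 6200 bp, range 400 to 30200 bp), and together the members covered 16.0 Mb. The mean WT strength had a median of 10.7 rpm, with a lowest value of 2.51 and a highest of 110.4 rpm. Regions present in all 4 libraries were wider (median 7000 bp) and stronger (median 28.1 rpm), and per kilobase of island the medians were 3.17 rpm in the members and 5.44 rpm in those regions. KO-only regions had a median width of 4000 bp, a median KO strength of 10.1 rpm and 3.11 rpm per kilobase, close to the WT-only values. In the members, the medians were 10.1 rpm in WT replicate 1 and 10.9 rpm in WT replicate 2. The replicates lay within 2-fold of each other in 2960 members (91.8%), and across members the log2 values had a Pearson r of 0.834, which is given as a description because regions share libraries. All members together took 4.23% of the island reads of WT replicate 1 and 4.79% of those of replicate 2.

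**Figure D1:**
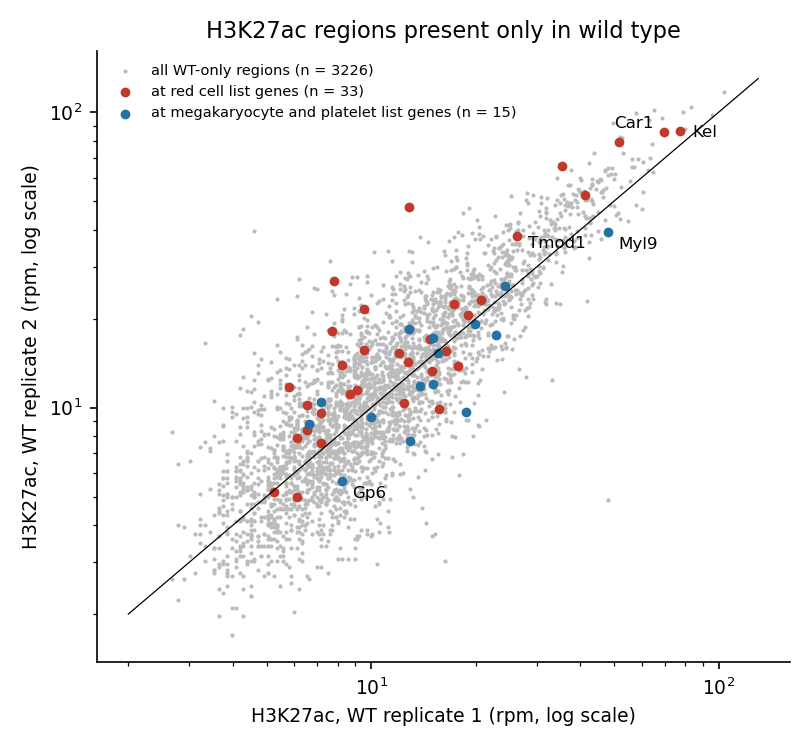
Strength of the 3226 WT-only regions in WT replicate 1 (x axis) and WT replicate 2 (y axis), in rpm on log scales, with regions at red cell list genes (red) and megakaryocyte and platelet list genes (blue); each point is 1 region and the line marks equal strength. Most points lie near the line, and the regions at Kel (77.5 and 86.5 rpm) and Car1 (69.6 and 85.8 rpm) sit near its upper end.

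Since a region without an island has no count, the KO level of a member is only known to lie under what was called there. The weakest H3K27ac island of KO replicate 1 held 2.17 rpm and that of KO replicate 2 held 2.16 rpm. Of the members, 3220 were stronger than both in each WT library, 2002 (62.1%) exceeded 7.46 rpm, the higher of the KO libraries' lowest deciles, and 403 (12.5%) exceeded 21.0 rpm, the higher of the KO medians. These totals leave out width: the narrowest KO islands were 200 bp, and the median member was 4200 bp wide. Whether the same total spread over a member's width would have been called in KO was not tested. The weakest 3 members were a 600 bp region at the kinesin gene Kifc5b (2.89 and 2.62 rpm in WT), an 800 bp region near its relative Kifc1 (2.68 and 2.62 rpm) and a 400 bp region near the receptor gene Eda2r (2.79 and 2.23 rpm). Just outside the rule lay 1531 regions with islands in both WT libraries and KO replicate 1 alone, whose median strength was 9.22 and 8.91 rpm in WT and 7.38 rpm in KO replicate 1. Only 255 regions had islands in both WT libraries and KO replicate 2 alone (12.8 and 14.6 rpm in WT, 8.18 rpm in KO). The strongest 3 regions that missed the rule by 1 library were larger in WT than every member. A 42400 bp region in Spire1, an actin nucleator gene, held 184.3 and 227.0 rpm in WT and 6.65 rpm in KO replicate 2. A 20000 bp region that lies beside the olfactory receptor gene Olfr66 (chr7:103858401-103878400), 5.19 kb from the embryonic globin gene Hbb-y and 30.5 kb from Hbb-bs, held 115.1 and 155.8 rpm in WT and 9.55 rpm in KO replicate 1. A region in Pcx, which encodes pyruvate carboxylase, held 110.1 and 127.1 rpm in WT and 15.5 rpm in KO replicate 2.

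The 10 strongest members were a mixture of gene ends, introns and gene deserts. The strongest lay at the predicted gene Gm50595 (chr2:75446001-75465400), with 103.4 and 117.5 rpm. Next came a 29000 bp region inside the long noncoding RNA gene Pvt1 (chr15:62108801-62137800), with 95.4 and 98.2 rpm; the nearest coding gene was the growth regulator Myc, 118.4 kb away. Arl15, a small GTPase gene, held the widest member (30200 bp, 83.1 and 104.5 rpm). Sh3tc2, known for a hereditary nerve disease, had 78.9 and 100.5 rpm at an end, and Pkhd1l1, a relative of the polycystic kidney gene Pkhd1, 80.0 and 87.7 rpm. A region near Camk1g (65.1 and 102.0 rpm) lay 289.4 kb from that gene and met the noncoding RNA gene Gm31870. Ssbp3, a partner of the LDB1 adaptor in GATA complexes, held 68.7 and 95.4 rpm in its body. Kel (chr6:41697201-41710000, 12800 bp) had 77.5 and 86.5 rpm at the promoter printed above, Fhdc1 58.0 and 99.1 rpm, and Ints8, an Integrator subunit gene, 63.1 and 93.8 rpm. WT replicate 2 was the higher in all 10, and the region at Fhdc1 had the widest gap between replicates among them, 78.5 ± 29.1 rpm (SD, n = 2). Other wide members lay in Snd1 (23000 bp) and in Ints8 (24600 bp) and Ssbp3 (29600 bp).

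Most members lay away from gene ends. Within 2 kb of an annotated end of a protein-coding gene lay 532 members (16.5%), against 54.0% of the regions present in all 4 libraries and 17.9% of the KO-only regions. A further 1593 members (49.4%) lay inside a gene away from its ends, against 25.3% and 44.2%. The remaining 1101 members (34.1%) were intergenic, against 20.7% and 37.9%. Of these, 283 (25.7%) met an annotated long noncoding RNA gene, and 344 lay over 50 kb from any coding gene. The median distance from an intergenic member to the nearest gene was 22.9 kb, against 23.0 kb for intergenic regions of all 4 libraries and 38.1 kb for KO-only ones. Members made up between 6.91% (chromosome 15) and 11.8% (X chromosome, 109 regions) of the merged regions of a chromosome, and Y held 0 merged regions of any class. Position was not used by the rule, but these shares were not tested, because regions of 1 set of libraries are not replicates.

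**Figure D2:**
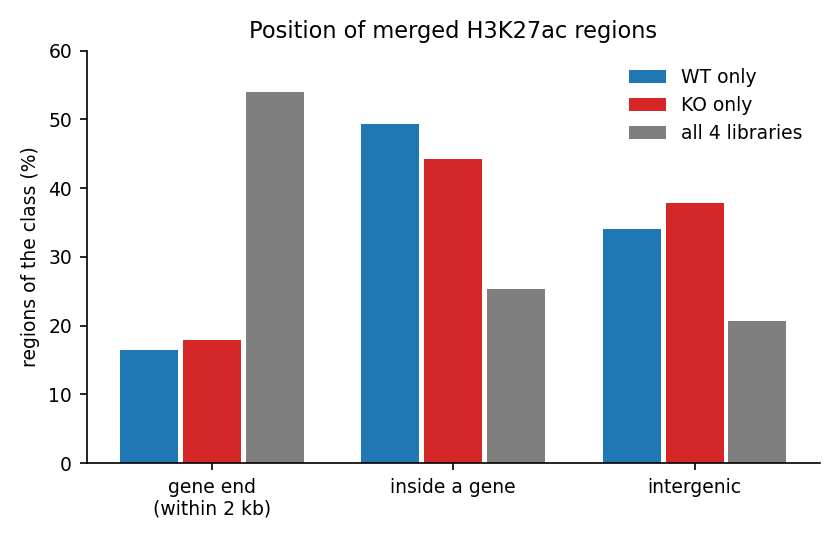
Share of merged H3K27ac regions (y axis, percent of the class) that lie within 2 kb of a gene end, inside a gene or between genes, for WT-only (blue, n = 3226), KO-only (red, n = 1800) and regions in all 4 libraries (grey, n = 18820). WT-only and KO-only regions are alike in position, with 16.5% and 17.9% at gene ends, while 54.0% of shared regions lie there.

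The rule excludes any region that overlaps a KO island, but a member can lie a short gap away from one, as in Tcf4 (201 bp). Within 10 kb of a region present in all 4 libraries lay 1243 members (38.5%). Whether such members are edges of neighbouring islands was not tested. The median distance to the nearest H3K27ac island of either KO library was 12.4 kb, 118 members (3.66%) lay within 1 kb of one, and 506 (15.7%) lay more than 50 kb from any. Kel was 90.8 kb from the nearest KO island and Sh3tc2 74.4 kb. Regions present in all 4 libraries that were nearest to a member also had lower KO strength, on the same contrast that the rule used: their median log2 ratio of mean KO over mean WT rpm was -0.08 (2533 regions), against 0.14 in the other 16287. A ratio below -1 was found in 12.2% of them and in 3.67% of the others.

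WT-only regions met 1757 of 21775 protein-coding genes (8.07%) in their body or within 2 kb of it. Of all these genes, 12919 had an H3K27ac island there in both WT libraries. The 8.07% thus also counts genes without such islands, which had little room to be met. They met 611 genes at an end, 353 genes held 2 or more members and 103 held 3 or more. Genes that were met were longer than most, with a median length of 62.1 kb against 17.2 kb over all genes, so long genes had more room to hold a member. Among the genes with the most members, all of them long, Sox5, a transcription factor gene, held 9, while Bcas3, the endocytosis gene Dennd1a and the coactivator gene Ppargc1a held 6 each. Ppargc1a kept 2 and 1 islands in the KO libraries, against 8 and 10 in WT. The members in Ppargc1a ranged from 5.68 and 5.44 rpm to 29.4 and 27.9 rpm. In 300 of the genes met (17.1%), neither KO library had any H3K27ac island on the gene or within 2 kb of it, and these had a median length of 25.3 kb.

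Among the red cell genes, members met globins and genes of the cell surface and the membrane skeleton. Of 10 globin genes 3 were met (30.0%, beside 8.07% of all genes), and none of the 3 kept a KO island. Hbb-bs was met by 2 members, one over its 3′ end with 12.8 and 14.2 rpm and one, at its promoter, with 6.54 and 8.39 rpm. The adult alpha globin genes Hba-a1 (7.18 and 9.57 rpm) and Hba-a2 (8.25 and 14.0 rpm) each had 1. Without WT replicate 1 the globins met would be 6. All 3 were lightly marked beside the strongest members.

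The list of red cell surface and blood group genes, which also holds carbonic anhydrases of the cytosol, was met in 6 of 28 cases (21.4%), and Kel, Car1, Rhag and Cd59a kept no KO island. Car1, a cytosolic carbonic anhydrase of red cells, had 1 member of 17800 bp at an end (chr3:14792001-14809800) with 69.6 and 85.8 rpm. Kel had a second, smaller member at its other end (8.68 and 11.1 rpm). Art4, which carries the Dombrock blood group, had 17.8 and 13.8 rpm, and Slc14a1, the urea transporter of the Kidd blood group, 15.6 and 9.90 rpm. Cd59a, a brake on complement, held 2 members, of 16.4 and 15.6 rpm and of 6.11 and 4.98 rpm. Rhag, a partner of the Rh proteins, held the weakest, with 5.25 and 5.18 rpm. The genes of this list thus ranged from the top 10 of all members down to the lowest quartile (up to 7.15 rpm).

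Of 16 membrane skeleton genes 5 were met (31.2%). Sptb, a spectrin chain of the net under the red cell membrane, had members of 51.7 and 79.3 rpm and of 6.54 and 10.2 rpm in its body and 3 islands in each KO library. Tmod1 had 26.4 and 38.2 rpm at the promoter printed above. Tpm1, a tropomyosin, had 17.3 and 22.4 rpm, and Mpp1, a membrane scaffold protein, members of 12.003 and 15.3 rpm and of 5.79 and 11.7 rpm. Without KO replicate 2 the list would count 8 genes.

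The haem and iron list gave 3 of 28 genes (10.7%) and the list of GATA and erythroid factors 4 of 27 (14.8%), and each of these 7 genes kept an island in at least 1 KO library. Nearly all genes of both lists were marked at an end in WT (26 and 27 of 28, 26 and 24 of 27), unlike the genes behind the 8.07%. Alas2, the first enzyme of haem synthesis in red cells, had 9.54 and 15.7 rpm, and Slc11a2, an iron transporter, 14.8 and 17.1 rpm. Steap3, which reduces iron taken up with transferrin, held 2 members of 15.0 and 13.3 rpm and 9.11 and 11.5 rpm. Without WT replicate 2 the haem and iron list would count 5 genes. The factors met were Sox6 and Nfia, which take part in the switch from embryonic to adult globins and in red cell fate, Mllt3, a stem cell regulator, and Hbp1. Nfia and Sox6 are long genes (540.8 and 569.9 kb). Nfia held 5 members, the strongest of 35.5 and 65.5 rpm. One of the 2 members in Sox6 differed between the replicates by more than 3-fold (12.9 and 47.7 rpm). No member lay within 2 kb of an end of these 4 genes, and none met Gata1, Gata2, Tal1 or Klf1.

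Megakaryocyte and platelet genes were met in 10 of 39 cases (25.6%), 6 of them at an end, and 5 kept no KO island, among them Myl9, Mmrn1, Gp6 and Rab27b. Myl9, a myosin light chain, had the strongest of these members (48.0 and 39.3 rpm). Rab27b, which serves the release of platelet granules, held 5 members in its body, from 7.18 and 10.5 rpm to 24.2 and 25.9 rpm. Mmrn1 had 15.5 and 15.3 rpm, and Gp6 8.25 and 5.64 rpm. Vwf, the von Willebrand factor gene, Ppbp, a platelet chemokine, Ptgs1, the cyclooxygenase that makes thromboxane in platelets, Ltbp1 and the adhesion receptor gene Cd226 were met too, but kept KO islands on the gene. Vwf had 18.8 and 9.70 rpm, and Ppbp, in a member shared with its neighbour Cxcl5, 19.9 and 19.2 rpm. Without KO replicate 1 the list would count 17 genes.

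**Figure D3:**
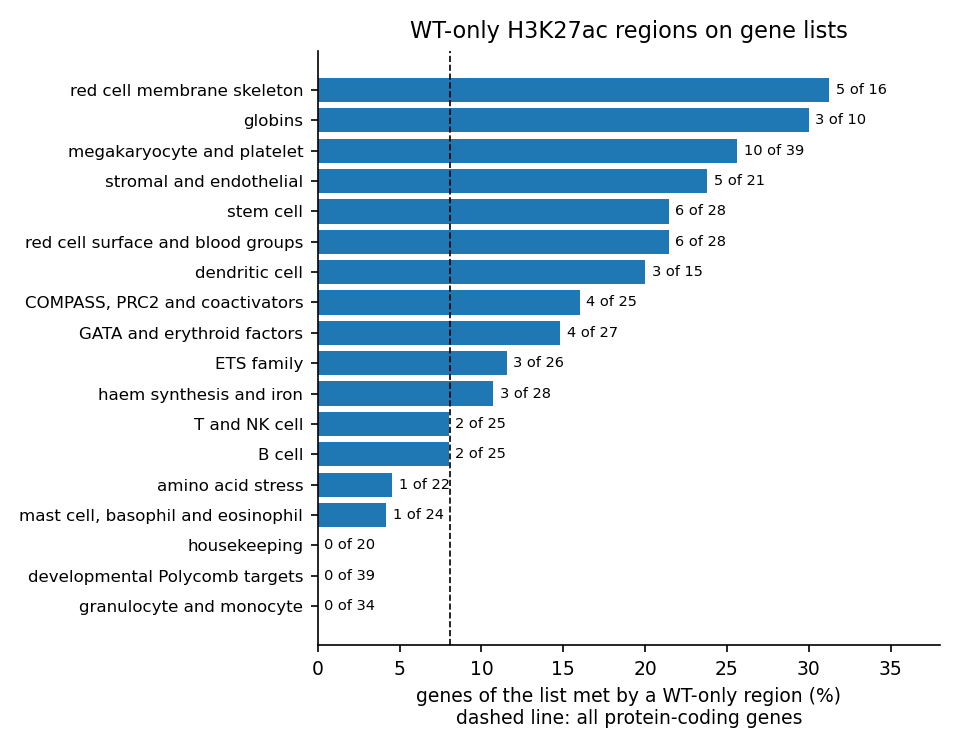
Share of the genes of each list (x axis, percent) that a WT-only region met in the body or within 2 kb, with counts beside the bars; the dashed line marks the 8.07% of all protein-coding genes. The membrane skeleton, globin and megakaryocyte lists have the longest bars (31.2, 30.0 and 25.6%), and the granulocyte and monocyte, Polycomb target and housekeeping lists have none. No Polycomb target had an H3K27ac island at an end in WT, and the 8.07% also counts genes unmarked in WT.

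No gene of the granulocyte and monocyte list was met (0 of 34), a list marked at 31 and 29 genes in KO and 25 and 24 in WT, nor of the housekeeping (0 of 20) or developmental Polycomb target lists (0 of 39). Of the Polycomb targets, 0 had an H3K27ac island at an end in either WT library, so no member could lie at their ends. Of the stem cell list 6 of 28 were met (21.4%), among them Mecom, Meis1, Prdm16, Tek and Esam, with strengths between 6.16 and 16.3 rpm. Stromal and endothelial genes gave 5 of 21 (23.8%): Flt1, Tek, Nes, Runx2 and Sp7, all at 15.5 rpm or less in each library. Lineage depletion does not remove stromal cells, and 8 of these 21 genes had an H3K27ac island at an end in each WT library and 5 in each KO library; the part of such cells in these members was not tested. B cell (Blnk, Bach2) and T and NK cell genes (Cd247, Themis) gave 2 of 25 each (8%). The ETS family gave 3 of 26 (11.5%), namely Erg, Elf3 and Ehf, dendritic cell genes 3 of 15 (20%; Zbtb46, Tcf4 and Runx2), the mast cell, basophil and eosinophil list 1 of 24 (4.17%; Il1rl1) and the amino acid stress list 1 of 22 (4.55%; Trib3). The list of COMPASS, PRC2 and coactivator genes gave 4 of 25 (16.0%): Kmt2b, an H3K4 methyltransferase gene, with 26.7 and 35.6 rpm, Crebbp with 3 members, Ezh1 and Smarca2. Without WT replicate 1 that list would count 9. Solute carrier genes were met in 42 of 375 cases (11.2%), zinc finger genes of the Zfp series in 12 of 397 (3.02%) and ribosomal protein genes in 0 of 84.

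UTX itself was found at few members, and the UTX replicates differed there. UTX replicate 1 had an island at 164 members (5.08%, Wilson 95% interval 4.38 to 5.90%) and replicate 2 at 565 (17.5%, 16.2 to 18.9%). KO-only regions met islands at 4.50% and 4.67%, and regions of all 4 libraries at 47.5% and 52.3%. Intervals cover counting error only, and regions of 1 library are not replicates. With the lists cut to the 14000 strongest islands of each replicate, the shares at members were 4.84% and 12.6%, and at KO-only regions 4.22% and 2.44%. With 2 UTX libraries that disagree, whether WT-only and KO-only regions differ in UTX was not tested. UTX was measured in WT alone, and which UTX replicate is nearer to the true share was not tested.

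**Figure D4:**
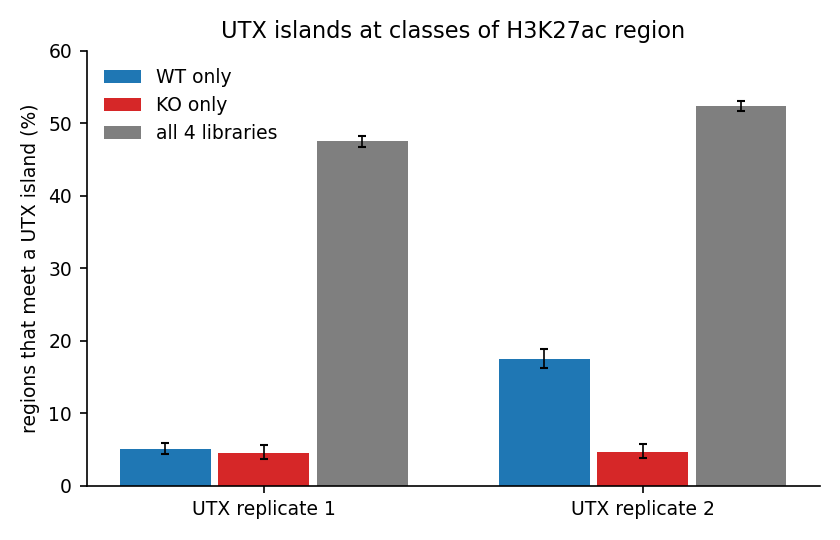
Share of regions that meet a UTX island (y axis, percent) in UTX replicates 1 and 2, for WT-only (blue), KO-only (red) and regions of all 4 libraries (grey), with Wilson 95% intervals as error bars. WT-only and KO-only regions are close in replicate 1 (5.08 and 4.50%) and apart in replicate 2 (17.5 and 4.67%), and both lie far under the shared regions.

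The share of members with a UTX island varied with their strength and width. For UTX replicate 2, in the weakest quartile by H3K27ac (up to 7.15 rpm) 7.93% met one, then 10.5% and 16.1%, and in the strongest quartile (from 16.9 rpm) 35.4%. For UTX replicate 1 the shares in the same order were 3.72, 3.598, 4.96 and 8.05%. By width the replicate 2 shares were 10.3% up to 3 kb, 15.5% from 3.2 to 6 kb and 29.1% above 6 kb, and the replicate 1 shares 4.59, 4.00 and 7.49%. In replicate 2, regions of all 4 libraries had 37.9, 44.6 and 59.5% and KO-only regions 7.23, 3.07 and 4.31%, so a higher share at wide regions was not particular to the members. Members at gene ends met replicate 2 in 25.8% of cases, those inside genes in 14.4% and intergenic ones in 17.98%, and replicate 1 in 10.2, 4.27 and 3.81%. In the same order, regions of all 4 libraries met replicate 2 in 73.9, 28.7 and 24.9% and replicate 1 in 69.2, 22.7 and 21.3%. KO-only regions had 13.0, 2.89 and 2.79%, and 13.7, 2.51 and 2.49%. All merged regions had 62.5, 15.6 and 14.5%, and 57.7, 10.5 and 10.9%. Since 16.5% of members and 54.0% of shared regions lie at gene ends, position enters the totals given above. Both UTX replicates with no IgG island met 66 members (2.05%), against 1.44% of KO-only regions and 38.3% of regions of all 4 libraries. IgG islands met 7 members (0.217%), and with IgG islands ignored the count for both UTX replicates was also 66. The IgG library held only 3133 islands, so the lack of an IgG island is a weak check on background.

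Among the members with UTX in both replicates, the strongest by H3K27ac were at Arl15 (22 and 182 UTX reads), Fhdc1 (70 and 564), Pfdn1 (33 and 75), Sptb (31 and 140) and near Spz1 (29 and 59). Fhdc1, whose formin-like product acts on actin and microtubules, had the most UTX reads of these. Tmod1 also had UTX in both (20 and 121 reads). At Car1 (154 reads), the stronger Hbb-bs member (74) and Kel (39), UTX had an island in replicate 2 alone. No UTX island met the regions at Myl9, Mmrn1 or Gp6.

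H3K27me3, which the rule did not use, covered a small share of the members, higher in each KO library than in each WT library. Islands met 233 and 240 members in the WT libraries and 279 and 275 in the KO libraries. They covered 3.48 and 3.24% of the members' length in WT and 4.07 and 4.34% in KO. The islands that met members held 18052 and 17641 rpm in WT (17847 ± 291, mean ± SD, n = 2) and 24104 and 24254 rpm in KO (24179 ± 106, n = 2), a ratio of 1.35. An island that runs beyond a member counts in full here, and by covered length alone the ratio was 1.25. Groups did not overlap on any of these measures, and an exact permutation test (two-sided) gave p = 0.333, the smallest possible with 2 libraries against 2. At KO-only regions the order was the reverse, with 227 and 208 regions met in WT and 147 and 169 in KO, and 18860 ± 508 rpm in WT against 14113 ± 1988 rpm in KO (ratio 0.748, exact permutation p = 0.333, n = 2 each). At regions of all 4 libraries the rpm ratio was 0.993 and the groups overlapped (exact permutation p = 1, n = 2 each). There, too, fewer regions were met in each KO library (1076 and 1278) than in each WT library (1349 and 1637, ratio 0.788), and the covered length had a ratio of 0.821, both without overlap (exact permutation p = 0.333, n = 2 each). Over the whole genome the KO libraries held fewer H3K27me3 islands as well, 15743 and 14665 against 18847 and 20412 in WT. As a share of all H3K27me3 island length, the KO over WT ratio was 1.55 at members, 0.875 at KO-only regions and 0.993 at regions of all 4 libraries. Whether the ratios of these classes differ was not tested.

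**Figure D5:**
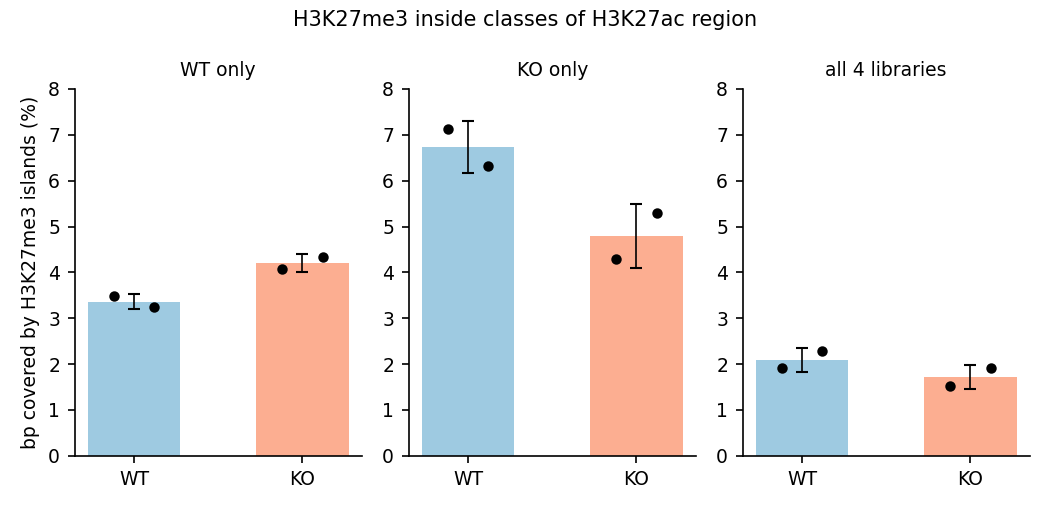
Share of the length of WT-only, KO-only and shared H3K27ac regions that H3K27me3 islands covered (y axis, percent); points are libraries, bars are means and error bars are SD (n = 2 libraries a group). In WT-only regions both KO libraries (4.07 and 4.34%) lie above both WT libraries (3.48 and 3.24%), and in KO-only regions both lie below.

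In all, 443 members (13.7%) met an H3K27me3 island in at least 1 library, against 15.4% of KO-only regions and 11.9% of regions of all 4 libraries, and 131 members (4.06%) met one in all 4. Members at gene ends met one in 30.1% of cases, intergenic ones in 14.4% and those inside genes in 7.78%. The pattern of an island in both KO and no WT library was found at 28 members (0.868%), against 0.356% of regions of all 4 libraries and 0 of 1800 KO-only regions. The reverse pattern was found at 10 members (0.31%), against 1.09% and 1.33%. The 28 included Cdh23, a cadherin gene (0 and 0 reads in WT, 74 and 62 in KO), the amino acid transporter gene Slc38a5 (99 and 60 in KO), Pml (42 and 82), Fam169a and Siglec15. The 10 included regions at Il22ra1, Gpc4, Galnt16 and Coro2b. Such a pattern can rest on where an island ends: the merged H3K27me3 region that meets the Siglec15 member had 87.1 and 144.9 counts per 1000000 (CPM) in WT and 102.7 and 91.9 CPM in KO, and that at Fam169a 103.0 and 154.3 CPM in WT and 174.4 and 154.5 CPM in KO. At Coro2b, of the reverse pattern, the values were 61.7 and 77.9 CPM in WT and 104.2 and 75.3 CPM in KO. Genes of these 2 sets were chosen by the pattern itself, so their counts are a description.

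No single H3K27me3 region at a member was called by edgeR. Of 6771 H3K27me3 regions with an island in all 4 libraries, edgeR's quasi-likelihood test called 0 higher (0%) and 1 lower (0.0148%) in KO at a Benjamini-Hochberg adjusted p under 0.05, with 517 at an unadjusted p under 0.05. None of the 198 regions that met a WT-only H3K27ac region was called, with 28 at an unadjusted p under 0.05. DESeq2 called 2 of them higher and 0 lower, beside 16 higher and 17 lower among all 6771. On simulated counts the edgeR test recovered 23% of regions changed 2-fold and 94% of those changed 4-fold. The simulation gave every region the same variability between libraries, so recovery in the real data may differ. The 198 regions had a median log2 fold change (KO over WT) of 0.17, against -0.0015 over all regions tested. Of them 133 (67.2%) were above 0, beside 49.8% of all. In 79 (39.9%) both KO libraries exceeded both WT libraries, beside 19.6% of all, and in 23 (11.6%) both lay below, beside 18.8% of all. The 150 regions that met KO-only H3K27ac had a median of -0.16, and 8 had both KO libraries above and 57 below. How far these medians lie from that of all regions was not tested, since regions of the same 4 libraries are not replicates.

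The lowest unadjusted p-values among the 198 were at Lrrc32, Fhdc1, Lrig1 and Dysf. Lrrc32, which displays latent TGF-beta on the cell surface, had 63.7 and 79.0 CPM of H3K27me3 in WT and 188.8 and 161.3 CPM in KO (log2 fold change 1.29, SE 0.288, edgeR adjusted p = 0.359). Fhdc1 had 80.1 and 90.5 CPM in WT and 201.7 and 172.1 CPM in KO (1.13, SE 0.265, edgeR adjusted p = 0.359). WT and KO libraries did not overlap at either gene, yet neither passed the edgeR test. Lrig1, a brake on growth factor receptors, had 180.1 and 224.4 CPM in WT and 403.0 and 316.3 CPM in KO, while Dysf, the muscle membrane repair gene dysferlin, went the other way, with 319.9 and 260.0 CPM in WT and 175.9 and 148.6 CPM in KO. Among the 198, the 2 regions that DESeq2 called were those at Lrrc32 (DESeq2 adjusted p = 0.0404) and Chchd6 (log2 fold change 1.80, DESeq2 adjusted p = 0.0482).

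Of the 5 strongest members with H3K27me3 in both KO libraries, Fhdc1 is described above and Cdh23 had no WT island. Slc28a3, a nucleoside transporter gene near its member, had 76.1 and 44.5 CPM of H3K27me3 in WT and 116.6 and 120.7 CPM in KO (log2 fold change 0.98, SE 0.371, edgeR adjusted p = 0.555). At Sowaha the wider of 2 H3K27me3 regions had 435.4 and 482.8 CPM in WT and 500.5 and 533.3 CPM in KO, and at Chst10, a sulfotransferase gene, the values of both groups overlapped. These members were chosen for having KO islands, which favours higher KO values, so neither the direction nor the size of these differences is read as a result. Tmod1 carried H3K27me3 in all 4 libraries with overlapping values (91.1 and 164.8 CPM in WT, 164.6 and 103.6 CPM in KO). No H3K27me3 island met the regions at Kel's promoter, Car1, Myl9 or Hbb-bs in any library.

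Promoters inside members held few CG dinucleotides beside those inside shared regions. The RefSeq table gave 21237 windows of 300 bases (250 before to 50 after a start) for 17468 coding genes. Of these windows 157, of 148 genes, had their start inside a WT-only region, 143 inside a KO-only region and 10895 inside a region of all 4 libraries. The median number of CG dinucleotides was 8 in WT-only, 14 in KO-only and 21 in shared regions, and 13 over all windows. Windows with fewer than 5 made up 35.7% of those in WT-only regions, 21.0% in KO-only, 7.62% in shared regions and 28.4% of all. A GATA match, as marked in the sequences above, was present in 52 of the 157 windows (33.1%), against 26.6% in KO-only regions, 17.9% in shared regions and 26.04% of all windows. The AP-1 motif TGANTCA was found in 10.8%, against 6.29, 4.57 and 6.99% in the same order, and the ETS motif CCGGAAG, on either strand, in 5.73% against 4.20, 19.7 and 11.6%. The CACCC motif CCNCNCCC, read on both strands, was found in 55.4% of WT-only windows, 62.9% of KO-only, 68.5% of shared and 56.6% of all windows. The motifs as searched cannot overlap in full, although their ends can share bases, and CCGGAAG itself holds a CG dinucleotide. The GATA motifs are rich in A and T, and the median share of G and C was 55.7% in WT-only, 58.0% in KO-only, 61.0% in shared and 56.3% in all windows. How far the GATA shares follow this base content was not tested. A match is a description of the letters and not evidence that a factor binds there.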

How the data were processed

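ChIP-seq of H3K27ac and H3K27me3 (2 WT and 2 KO libraries each), UTX (2 WT libraries) and IgG (1) was analysed here as deposited. The other 3 of 14 samples were not used here. Islands were called with SICER on mouse build mm10, per the submitters' processing notes; the SICER version, aligner, gap, threshold and control are not given in the sources used here. Each deposited file gives the islands of 1 library with the count of reads in each, and reads outside islands were not used.

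Overlapping H3K27ac islands (at least 1 bp) were merged with Python 3.11.15. Coordinates are 1-based mm10 positions on chromosomes 1 to 19, X and Y. Rpm is the reads of all islands that meet a region per 1000000 island reads of the library. Genes came from a RefSeq table of GRCm38 (21775 coding genes; a gene end is either annotated end, within 2 kb). H3K27me3 islands were merged likewise, and those that every library had called were compared by edgeR 4.0.16 (TMM, glmQLFit and glmQLFTest, no covariates, two-sided, Benjamini-Hochberg threshold 0.05) in R 4.3.3. H3K27me3 libraries held between 2347442 and 2743508 reads in islands, UTX libraries 816567 and 1834418, and IgG 154029. Simulated counts, drawn with the same variability for every region, tested recovery: 3 of 6571 unchanged regions were called.

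18 gene lists matched 438 of 444 genes. Named genes followed a rule: the 10 strongest and 5 widest members, the 5 strongest with UTX in both replicates or with H3K27me3 in both KO libraries, the 5 genes with most members, list genes met, the 3 weakest members and the 3 strongest regions that missed by 1 library. Some genes that the rule names are not reported here. Members, lists and tests were chosen with earlier results of these data known. Alternatives covered merging, island thresholds, windows, overlap, DESeq2 1.42.0, filters, a replicate block and leaving out each library.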

Additional observations from a re-analysis of the deposited data

How the results depend on the processing

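The number of WT-only regions lay between 2548 and 3117 under stricter merging, thresholds, distance to KO islands or chromosomes, and between 3523 and 6137 when 1 H3K27ac library was left out (6137 without WT replicate 1, 4877 without KO replicate 1). The share at gene ends was 13.6% with 1 kb windows, 25.98% with 5 kb, 29.8% with all annotated genes, and 14.2 to 16.8% with 1 library left out. The share with UTX and no IgG was 20.5% for either UTX replicate, 17.4% without UTX replicate 1, 5.08% without UTX replicate 2, and 1.29 to 2.24% with 1 H3K27ac library left out; UTX replicate 2 alone decides the larger share, 12.6% with the strongest islands only. The share meeting H3K27me3 was 15.8% within 1 kb, 12.2% with at least 50 reads an island, and 11.97 to 12.7% with 1 library left out. The KO over WT ratio of H3K27me3 in members stayed between 1.17 and 1.55 in all 13 alternatives.

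For H3K27me3 regions, DESeq2 called 16 higher and 17 lower (2 higher at members). The count of lower calls was 0 with library size in place of TMM and 0 with islands in at least 2 libraries. With 1 library left out, counts were 0 to 1 higher and 0 to 6 lower, where the lone library is assumed to vary like the other group. The replicate block gave 0 higher and 0 lower, and 0 and 0 at members; replicate numbers did not pair the libraries (correlation of deviations -0.05). The H3K27me3 libraries hold fewer island reads than those of H3K27ac, and a region without an island has no count. Of the lists, leaving out 1 library also moved haem and iron to 5 (without WT replicate 2), amino acid stress to 3 and 2 (without WT replicate 2 and KO replicate 1), and housekeeping and granulocyte and monocyte to 1 each; with at least 50 reads an island, stromal and endothelial moved to 3.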

Other observations

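Several red cell and platelet genes outside the lists also held WT-only regions. They were chosen after their values were seen, and genes of these kinds without a member were not counted. Pklr, the pyruvate kinase of red cells, had a member of 10400 bp over its start with 45.9 and 53.6 rpm of H3K27ac, no KO island on the gene, and 40 and 80 UTX reads. Acsl6, a fatty acid activating enzyme, held 3 members, the strongest of 48.3 and 39.7 rpm, and no KO island. Alox12, the platelet lipoxygenase, had 21.8 and 17.9 rpm, and Mpig6b, a platelet inhibitory receptor, 9.32 and 6.95 rpm with 103 UTX reads in replicate 2 alone. Alox12 kept 1 island in each KO library and Mpig6b 1 in KO replicate 2.

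Among the 300 genes met that kept no KO island, the largest summed strength in members was at Sh3tc2 (97.5 and 121.5 rpm), Kel (86.2 and 97.5), Pkhd1l1, Samd4, which binds RNA (87.6 and 78.7), and Rab27b (73.2 and 83.8). Slc30a10, a manganese exporter, followed Car1 with 55.2 and 62.4 rpm, and the fatty acid receptor gene Cd36 had 43.1 and 51.0 rpm. The retinoic acid synthesis gene Aldh1a1 had 45.4 and 39.5 rpm. A single member in 2900026A02Rik stood apart in the comparison of replicates, with 48.1 rpm in WT replicate 1 and 4.85 rpm in WT replicate 2.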
